A study of Drosophila melanogaster with 4 samples.

Results

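MOF places acetyl groups on the tail of histone H4. In flies the enzyme works in the MSL complex, which spreads along the single X chromosome of males and raises its transcription. It also works in the NSL complex, which is found at promoters of active genes on X and autosomes alike. Chromosome arm 2L is the left arm of the second chromosome. Its release 5 sequence is numbered from the distal (telomere) end towards the centromere.

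The MOF sites on 2L were taken as the regions of significant enrichment, termed clusters below, that the authors placed on 2L in their list for the replicate set. The heterochromatic scaffold 2LHet was not included. This gave 1007 clusters of 6232 in the whole list. The separate lists of the 2 ChIP replicates held 677 of 4158 clusters (replicate 1) and 642 of 3911 clusters (replicate 2) on 2L. Chromatin immunoprecipitation with sequencing had been carried out with the antibody MOF Q4145 on wild-type Oregon-R embryos at 14 to 16 h of development, in 2 ChIP libraries, each with 1 input library. No mutant or treated group was included, and the labels leave the sex of the embryos open. Nothing in the labels ties the 2 replicates to separate collections of embryos, and their spread may therefore be technical. Coordinates are those of FlyBase release 5. Genes at the clusters are not named, because no annotation of that release was used here, and no sequence is shown for the same reason.

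A cluster is recorded by its start, its end and a score. The score behaves as a log2 enrichment ratio with its own scaling constant in each list, taken here as ChIP over input, so scores were compared within a list only. Read depth is unknown from these files, so scores are given without their counting error, which could not be computed. Clusters of a library are not replicates, so 2L was compared with the other autosome arms over the 2 ChIP libraries. With 2 libraries an exact sign-flip permutation test cannot give a p below 0.5, and differences are therefore described by their value in each library.

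MOF clusters were sparser on 2L than on each of the arms 2R, 3L and 3R in both replicates. Clusters covered 6.79% of 2L in replicate 1 and 6.46% in replicate 2, against 8.00% and 7.49% of the other 3 arms together. The difference was -1.12 ± 0.12 percentage points (SD, n = 2; exact sign-flip permutation p = 0.5, two-sided, the smallest that 2 libraries allow). Since the same direction was found against 2R, 3L and 3R each, no single arm set it. By number, 2L carried 29.4 and 27.9 clusters per Mb in replicates 1 and 2, against 34.5 and 32.1 per Mb on the other arms. In the replicate set 2L made up 23.8% of the length of the 4 arms and held 21.6% of their clusters.

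The clusters that were present resembled those of the other arms in size and score. The median width on 2L was 2094 bp in replicate 1 and 2100 bp in replicate 2, against 2094 and 2105 bp on the other arms. The median score on 2L was 0.72 in replicate 1 and 0.86 in replicate 2, against 0.72 and 0.90 on the other arms. Wide and strong clusters were about as frequent on 2L as elsewhere. In the replicate set, 13.6% of the 2L clusters (137 of 1007) were at least 3 kb wide, against 14.9% on the other arms and 14.6% in the whole list. A score of at least 1, or at least a doubling over input in the authors' scaling and a limit chosen after the data were seen, was reached by 22.6% of the 2L clusters (228 of 1007), against 23.8% on the other arms and 24.0% in the whole list. The sparser coverage thus lay in the number of clusters, and these shares of wide and strong clusters were not tested.

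The spacing of clusters showed the same sparseness. The median distance from the end of a cluster to the start of the next was 16600.5 bp on 2L in replicate 1 and 19487 bp in replicate 2, against 13881 and 15498.5 bp on the other arms. Distances of at least 50 kb made up 20.4% and 20.9% of those on 2L in replicates 1 and 2, against 14.9% and 17.6% elsewhere. Of the 460 full windows of 50 kb on 2L, 27.4% held no cluster base in replicate 1 and 27.8% in replicate 2. The other arms had 23.6% and 26.2% of such windows. In the replicate set, with more clusters, 16.3% of the 2L windows (75 of 460) were empty, against 14.4% on the other arms. Empty windows were thus more common on 2L in each of the 3 lists, which come from the same 2 libraries.

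The arm was then divided at its midpoint into a distal and a centromere-near side, and coverage was higher on the distal side of 2L. This side was covered to 7.62% in replicate 1 and 7.14% in replicate 2, against 5.97% and 5.77% of the centromere-near side. The difference was 1.51 ± 0.202 percentage points (SD, n = 2; exact sign-flip permutation p = 0.5, two-sided, the smallest possible). By number, the distal side carried 32.8 and 30.9 clusters per Mb in replicates 1 and 2, against 26.1 and 24.9 per Mb. Values of the 2 sides did not overlap. The 2 ends of the arm together held part of the difference. Without the first and the last 1 Mb, a choice made after the data were seen, it was 0.849 ± 0.123 percentage points (SD, n = 2). With only the last 2 Mb left out, a planned setting, it was not smaller, at 1.70 and 1.44 percentage points in replicates 1 and 2.

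Divided at the midpoint, the other arms did not share this direction in both libraries. In the same measure, distal minus centromere-near, 2R had -0.296 and -0.531 percentage points in replicates 1 and 2, and 3R had -1.09 and -1.24. Arm 3L had 0.251 in replicate 1 and -0.187 in replicate 2. The signs of 2R and 3L depended on the division. With the outer parts of each arm divided into 3 compared instead, 2L had 2.02 and 1.51 percentage points in replicates 1 and 2, 2R had 0.569 and 0.215, 3L had 0.327 and 0.00552, and 3R had -1.11 and -1.26. Arms 2R and 3L then shared the direction of 2L at smaller values, and 3R remained opposite to it. The distal side of 2L (7.38% ± 0.338, SD, n = 2) was covered about as much as the distal sides of 3L (7.38% ± 0.552) and 3R (7.18% ± 0.461). The centromere-near side of 2L (5.87% ± 0.137) was below those of 2R (8.37% ± 0.158), 3L (7.35% ± 0.242) and 3R (8.35% ± 0.357). The lower coverage of 2L relative to 3L and 3R therefore lay on its centromere-near side, while the distal side of 2R (7.96% ± 0.325) was also above that of 2L.

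**Figure D1:**
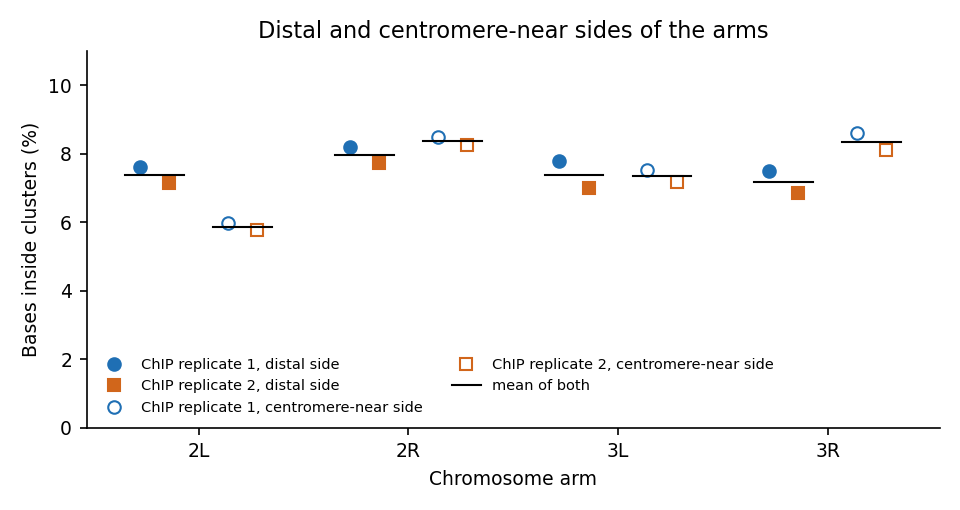
Share of bases inside MOF clusters (percent, y axis) on the distal side (filled symbols, left) and the centromere-near side (open symbols, right) of 4 autosome arms, with circles for ChIP replicate 1, squares for ChIP replicate 2 and lines for their mean. The centromere-near side of 2L, at 5.97% and 5.77%, was the lowest of all sides in replicate 1 and in replicate 2.

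Divided into 5 equal segments from the distal end, the arm had lower coverage from the third segment on, without a steady order. The segments were covered to 8.08% ± 0.383, 7.74% ± 0.435, 5.86% ± 0.0507, 5.33% ± 0.374 and 6.11% ± 0.0448 (SD, n = 2 each). The first segment was covered to 8.36% in replicate 1 and 7.81% in replicate 2, against 8.05% and 7.43% of the second, and was thus the higher in each library. The last 3 lay within 0.775 percentage points of each other. The first 2 segments thus stood above the rest. Scores did not divide in this way, although their median was highest in the first segment and lowest in the last in both replicates. Their medians in replicate 1 were 0.82, 0.69, 0.76, 0.71 and 0.68 from the first to the last segment, and in replicate 2 they were 1.01, 0.86, 0.83, 0.98 and 0.78. The replicate set had another order, with 0.51, 0.46, 0.45, 0.54 and 0.48, highest in the fourth segment and lowest in the third.

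**Figure D2:**
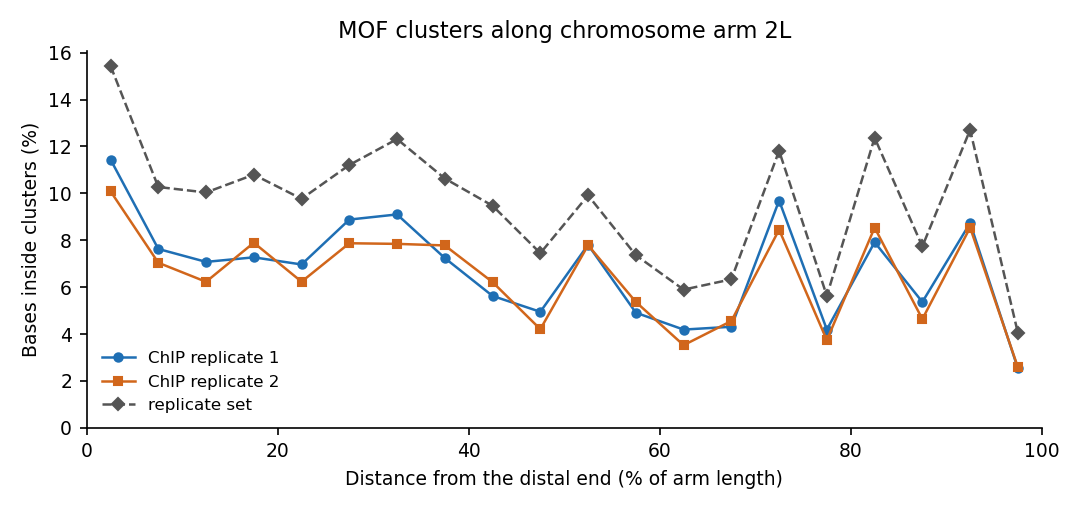
Share of bases inside MOF clusters (percent, y axis) in 20 equal bins along 2L, by distance from the distal end in percent of the arm length (x axis), in ChIP replicate 1 (circles), ChIP replicate 2 (squares) and the replicate set (diamonds, dashed). The first bin, at 11.4%, 10.1% and 15.4%, was the highest and the last, at 2.53%, 2.58% and 4.05%, the lowest in each list.

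The most covered window of 1 Mb was the first, at the distal end. It was covered to 11.7% in replicate 1, 10.5% in replicate 2 and 15.7% in the combined list, where it held 68 clusters. The next were 16 to 17 Mb with 10.1% ± 0.864 (SD, n = 2), 2 to 3 Mb with 9.08% ± 0.890, 8 to 9 Mb with 8.46% ± 0.239 and 20 to 21 Mb with 7.98% ± 0.228. Dense windows were thus found on both sides of the midpoint. The fifth place is not resolved, since 5 to 6 Mb had 7.95% ± 0.311, 6 to 7 Mb 7.93% ± 1.06 and 7 to 8 Mb 7.85% ± 0.709. The 5 least covered full windows all came after 10 Mb.

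The 2 least covered full windows were 10 to 11 Mb, in the middle of the arm, and 22 to 23 Mb, the last one. The window at 10 to 11 Mb had 2.97% in replicate 1, 2.16% in replicate 2 and 5.38% in the combined list. The last window had 2.51%, 2.75% and 4.29% in the same lists, so which of them was the lower differed between the replicates. The next lowest were 17 to 18 Mb with 3.72% ± 0.261 (SD, n = 2), 15 to 16 Mb with 4.39% ± 0.0708 and 14 to 15 Mb with 4.62% ± 0.436. In the window at 10 to 11 Mb the clusters had a median width of 1800.5 bp, against 2016 bp on the whole arm. Their median score was 0.38, against 0.48, none was of at least 3 kb and 9 of 30 overlapped both replicates. The window was picked by its low coverage in the replicates, so these values are not independent of that choice. Of the other sparse windows, 22 to 23 Mb had 1906 bp and 39.1% of clusters in both replicates. The windows at 14 to 15, 15 to 16 and 17 to 18 Mb had 2146.5, 2042 and 2114 bp, and 69.2%, 55.2% and 59.1%. The windows at 15 to 16 Mb and 17 to 18 Mb border the second densest window of the arm, so dense and sparse stretches alternated there within 3 Mb. Over the 23 full windows the most covered had 4.32 times the share of the least covered. The replicates ranked the windows alike, with a Spearman rho of 0.927 and a Pearson r of 0.959 across windows, which share their libraries and are not replicates.

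At a finer scale the 5 most covered windows of 250 kb were also spread over the arm. The window from 20.75 to 21 Mb was covered to 14.9% in replicate 1 and 17.0% in replicate 2. The window from 16.5 to 16.75 Mb was covered to 16.7% and 14.6%, and the adjoining window from 16.25 to 16.5 Mb to 14.7% and 15.5%. The remaining 2 were distal, at 2.75 to 3 Mb with 16.0% and 14.1%, and at 0.25 to 0.5 Mb with 14.9% and 15.0%. These 5 had overlapping values in the 2 replicates, and their order is not resolved. No full window of 250 kb was free of clusters in both replicates at once. The last full window, from 22.75 to 23 Mb, had no cluster in replicate 1 and 3 in replicate 2.

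The ends of the arm were examined next, since the centromere-near end of an arm passes into heterochromatin, which is poor in genes. The distal 1 Mb of 2L was covered to 11.1% ± 0.863 and the centromere-near 1 Mb to 2.63% ± 0.163 (SD, n = 2 each). On 2R the same ends had 9.86% ± 0.903 and 0.779% ± 0.0661, and on 3L 9.84% ± 1.21 and 0.808% ± 0.353. On 3R they had 6.05% ± 1.12 and 6.97% ± 0.438. The centromere-near end of 2L thus lay above those of 2R and 3L in both libraries and below that of 3R. The first cluster of the replicate set on 2L began at 5037 and the last ended at 22962591, 49.0 kb before the end of the arm sequence at 23011544. Beyond 22 Mb the replicate set held 23 clusters. Of these, 10 lay in the first 200 kb, and 7 of those 10 overlapped both replicates. The other 13 were spread from 22.2 Mb onwards, and 2 of them overlapped both replicates.

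The strongest cluster of the arm lay within the last 1 Mb, but before its sparse part. The 250 kb window that held it, from 22 to 22.25 Mb, was covered to 7.11% in replicate 1 and 6.58% in replicate 2. These values were near the 6.79% and 6.46% of the whole arm. From 22.25 to 22.5 Mb the shares were 1.39% and 1.57%. The strongest cluster spanned 22017819 to 22020345 (2527 bp) and scored 3.19 in the combined list, a 9.14-fold enrichment in the authors' scaling. It ranked first on 2L in each replicate, with scores of 3.02 in replicate 1 and 3.36 in replicate 2. Its next neighbour, 2927 bp away at 22023273 to 22025824, scored 2.20 in the list of the replicate set, and in the separate lists it scored 2.15 (replicate 1) and 2.27 (replicate 2). Beyond this pair 7 clusters overlapped both replicates, with scores of at most 1.10.

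Of the 10 highest-scoring clusters on 2L, 9 overlapped a cluster in each replicate. The second, at 16715062 to 16717679 (2618 bp), scored 2.97 in the list of the replicate set. In the separate lists it scored 2.78 (replicate 1) and 3.24 (replicate 2), and it ranked second in both. The third, at 14489134 to 14491885, scored 2.74 in the replicate set and 2.52 and 2.96 in replicates 1 and 2, and the fourth, at 14408477 to 14411630, scored 2.66, 2.56 and 2.72 in these lists. These last 2 lay 77.5 kb apart, in one of the 5 least covered windows. The fourth had no neighbour within 48612 bp and the third none within 16847 bp.

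The fifth cluster, at 2751482 to 2756699, was 5218 bp wide and scored 2.56 in the replicate set, with 2.46 and 2.79 in replicates 1 and 2. The sixth, at 3579758 to 3582106, scored 2.52, 2.33 and 2.68 in the same lists. They were the only ones of the 10 on the distal side, which held 565 of the 1007 clusters. The seventh, at 12617067 to 12619713, scored 2.51, 2.42 and 2.64. The ninth, at 13059151 to 13061532, scored 2.44, 2.34 and 2.54. The tenth, at 16283380 to 16289286, was 5907 bp wide and scored 2.43, 2.32 and 2.66. All 9 that recurred ranked within the first 10 of replicate 1 and the first 13 of replicate 2. Among the 100 highest-scoring clusters, 48 lay on the distal side and 52 on the centromere-near side. Of all 1007 clusters, 56.1% lay on the distal side.

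The eighth, at 21424211 to 21426198 (1988 bp), scored 2.46 in the replicate set, a 5.49-fold enrichment, and overlapped no cluster of either replicate. It was the only one of the 10 without a counterpart and the narrowest of them.

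**Figure D3:**
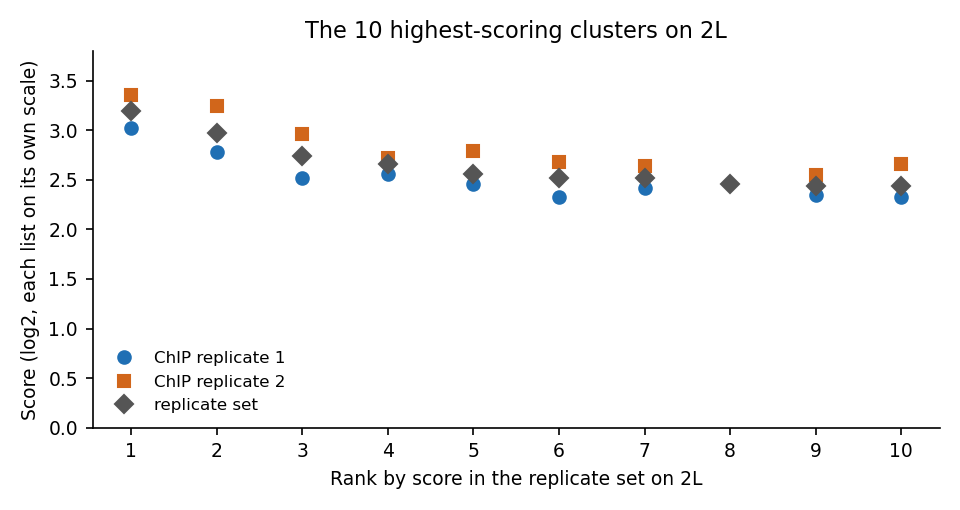
Scores (log2, y axis, each list on its own scale) of the 10 highest-scoring MOF clusters on 2L by rank in the replicate set (x axis), in ChIP replicate 1 (circles), ChIP replicate 2 (squares) and the replicate set (diamonds). The cluster of rank 8, with a score of 2.46, has a value in the replicate set alone.

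The widest clusters were a different group from the strongest, with 1 cluster, at 16283380 to 16289286, common to both sets of 10. Among the 100 widest and the 100 highest-scoring, 31 were shared. The widest of the arm, at 2191532 to 2204562, spanned 13031 bp in the replicate set but was 3 separate clusters in each replicate. These measured 1486, 2696 and 5146 bp in replicate 1, with scores of 0.50, 0.96 and 1.62, and 1762, 3603 and 5080 bp in replicate 2, with scores of 0.46, 0.95 and 1.82. They covered 71.6% of the span in replicate 1 and 80.2% in replicate 2. Scores of the pieces thus increased along the span towards its centromere-near end in both libraries, and the full width existed in the combined list alone.

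The second widest, at 5976505 to 5984497, was a single cluster in every list and nearly equal in width, with 7993 bp in the combined list and 7940 and 7985 bp in replicates 1 and 2. The third, at 244018 to 251914 (7897 bp), measured 7566 bp in replicate 1, beside a second piece of 1372 bp, and 6906 bp in replicate 2. The sixth, at 11803532 to 11810296, measured 6765 bp in the combined list and 6349 and 6402 bp in replicates 1 and 2. Likewise the seventh, at 12542196 to 12548632, measured 6437 bp there and 6034 and 5673 bp in the replicates. The tenth, at 16283380 to 16289286, measured 5907 bp there and 5684 and 5735 bp in the replicates. These 5 were wide in each library as well as in the combined list. Their scores in the combined list lay between 1.73 and 2.43.

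In the remaining 4 of the 10 widest the replicates covered less of the span or split it. The fourth, at 12000732 to 12008539 (7808 bp), was 6679 bp wide in replicate 1 and in 2 pieces of 2711 and 2970 bp in replicate 2, and scored 0.77 in the combined list. The fifth, at 19570429 to 19578225 (7797 bp), was in 2 pieces in each replicate. The eighth, at 19131082 to 19137451 (6370 bp), was matched by a single cluster of 2172 bp in replicate 1 and 2280 bp in replicate 2, which covered 34.1% and 35.8% of it. The ninth, at 16275135 to 16281157 (6023 bp), was also in 2 pieces in each replicate. Over the whole arm, 13 clusters of the replicate set overlapped 2 or more clusters of replicate 1, and 8 overlapped 2 or more of replicate 2. Joined spans of this kind were thus few among the 1007 clusters. A joined span is wide by construction, so their frequency among the 10 widest is tied to the ranking by width.

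Width and score moved together above 2 kb and not below it. This limit was chosen after the data were seen. In the replicate set the Spearman correlation of width and score across clusters was 0.462 among the 525 clusters of 2 kb or more, and -0.420 among the 482 narrower ones. In replicate 1 the values were 0.541 (447 clusters) and 0.0368 (230 clusters), and in replicate 2 they were 0.570 (425 clusters) and 0.0581 (217 clusters). The rise above 2 kb was thus seen in every list, while the fall below 2 kb was seen in the combined list alone. Below 2 kb the lists cover unlike ranges. On 2L the combined list reached down to 1001 bp, and replicates 1 and 2 to 1306 and 1302 bp. The other arms gave 0.469 and -0.358 in the replicate set, and these correlations describe clusters that share a library and a caller. Strong clusters were mostly of 2 kb or more. Of the 228 clusters with a score of at least 1, 218 were at least 2 kb wide.

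**Figure D4:**
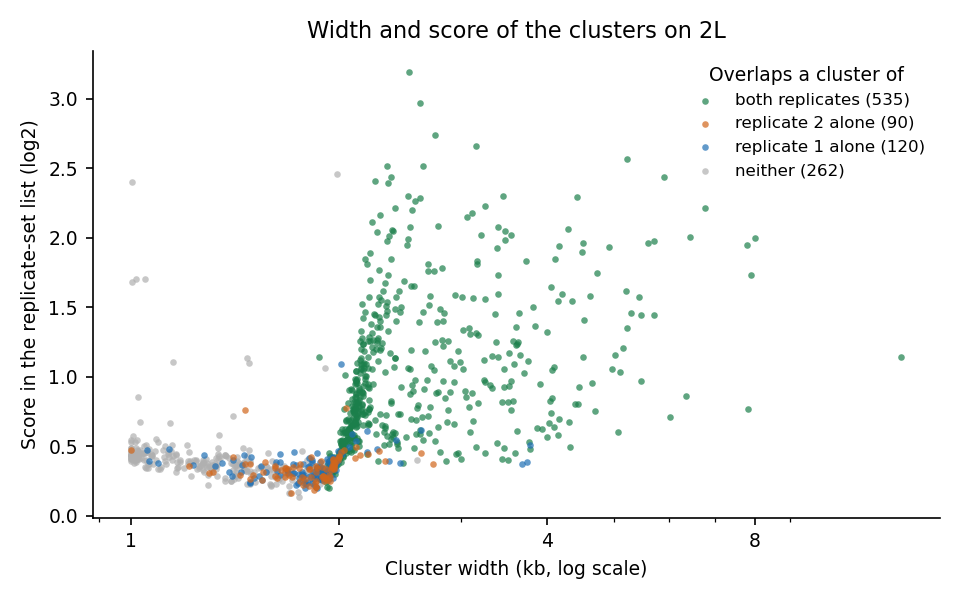
Width (kb, x axis, log scale) and score (log2, y axis) of the 1007 MOF clusters on 2L in the replicate set, coloured by whether they overlap a cluster of both replicates (535), of replicate 1 alone (120), of replicate 2 alone (90) or of neither (262). Scores fan out above 2 kb, and the 7 points under 1600 bp with a score of at least 1 belong to clusters found in neither replicate.

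Recurrence was measured next, as sharing at least 1 base with a cluster of a replicate list. The replicate set was made from the same 2 libraries, so the overlap is not independent of it. On 2L, 53.1% of the clusters (535 of 1007; exact Clopper-Pearson 95% interval 50.0 to 56.2%, counting error only) overlapped both replicates, and in the whole list the share was 53.5%. The other 3 arms had 56.7% (2068 of 3650; 55.0 to 58.3%). A further 120 clusters (11.9%) overlapped replicate 1 alone, 90 (8.94%) replicate 2 alone and 262 (26.0%) neither. These 3 shares were 11.6%, 7.61% and 27.3% in the whole list, and 11.6%, 6.49% and 25.2% on the other arms. The 2L share was near that of the whole list and below those of 2R (57.0%), 3L (55.7%) and 3R (57.2%), with an interval that overlaps each of theirs. By length, the recurring clusters were a larger part, with 66.4% of the covered bases against 16.1% for those found in neither replicate.

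Recurring clusters were wider and stronger. Width and recurrence are not independent here, since a wider cluster meets the rule of 1 shared base more easily. The replicate set also comes from the same libraries. Clusters in both replicates had median values of 2294 bp in width and 0.87 in score. Those in replicate 1 alone had 1853 bp and 0.35, and those in replicate 2 alone 1854.5 bp and 0.34. Those in neither had 1311.5 bp and 0.38. Clusters in 1 replicate were therefore alike whichever replicate it was. Those in neither were narrower still but had scores no lower than those in 1 replicate.

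Recurrence changed with width near 2 kb, by width classes chosen after the data were seen, and the same dependence applies. No cluster under 1600 bp overlapped both replicates, with 0 of the 137 from 1001 to 1300 bp (95% interval up to 2.66%) and 0 of the 105 from 1301 to 1599 bp (up to 3.45%). Of the 240 clusters from 1600 to 1999 bp, 15.8% did so (95% interval 11.5 to 21.1%). Of the 308 from 2000 to 2499 bp, 93.2% did so (89.8 to 95.7%), and of the 137 of at least 3 kb, 97.8% (93.7 to 99.5%). The narrowest cluster in either replicate list over the whole genome was 1301 bp wide, while the replicate set reached down to 1001 bp. Accordingly 128 of the 262 clusters found in neither replicate were narrower than any cluster that a replicate list contains.

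**Figure D5:**
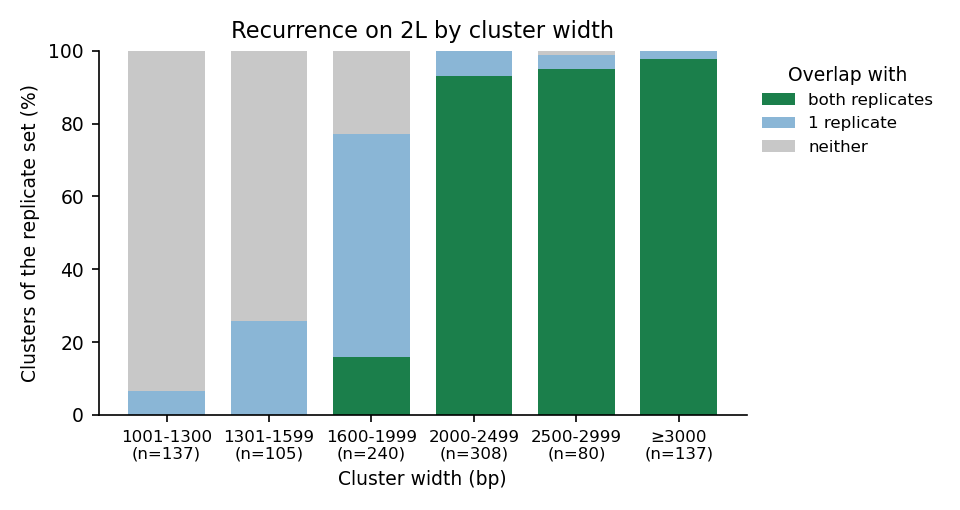
Share of the MOF clusters on 2L in the replicate set (percent, y axis) that overlap clusters of both replicates, of 1 replicate or of neither, by cluster width in bp (x axis, with the number of clusters in each class). The share in both replicates was 15.8% from 1600 to 1999 bp and 93.2% from 2000 to 2499 bp.

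By score the change was similar. With the 2L scores in 4 classes by their quartiles, in the lowest class 6.35% of clusters overlapped both replicates, in the second 23.8%, in the third 86.5% and in the highest 96.0%. By position the shares were similar. Those in the 5 segments, from the distal end, were 53.4%, 54.1%, 53.3%, 56.6% and 49.0%, with intervals that all overlap. By distance to the nearest neighbour, both replicates were overlapped by 52.6% of 285 clusters that had a neighbour within 2 kb, 53.0% of 587 with one within 2 to 20 kb, and 54.8% of 135 that stood more than 20 kb apart.

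Set against each other, 80.4% of the 2L clusters of replicate 1 (544 of 677; 95% interval 77.2 to 83.3%) overlapped one of replicate 2, compared with 81.2% in the whole list and 82.1% on the other arms. Of the 2L clusters of replicate 2, 84.7% (544 of 642; 81.7 to 87.4%) overlapped one of replicate 1, compared with 86.7% in the whole list and 88.9% on the other arms. The 2L shares were below those of the other arms in both directions, with no test of the difference. The 133 clusters of replicate 1 and the 98 of replicate 2 that did not recur reached scores of at most 1.25 and 1.28. Nearly all clusters of the replicates were kept in the replicate set, 668 of 677 for replicate 1 and 634 of 642 for replicate 2.

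Where a cluster of one replicate matched exactly 1 of the other, its borders were close. Over 536 such pairs the starts differed by a median of 42 bp and the ends by a median of 42 bp. In 401 pairs (74.8%) both borders lay within 200 bp. The scores of the pairs correlated across clusters with Spearman rho 0.889 and Pearson r 0.940, and these clusters share the embryo stage, the antibody and the caller. Scores were numerically higher in replicate 2 in 419 of the 536 pairs, but the 2 lists carry separate scaling constants. In bases, the replicates shared 1.27 Mb of the 1.78 Mb of 2L covered in either.

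The longest stretches without a cluster came next, and 4 of the 5 were empty in both replicates too. The longest in the replicate set ran from 17131881 to 17367650 (235.8 kb) and held no cluster of either library. The next, from 11582872 to 11803531 (220.7 kb), was also empty in both replicates and ended at the sixth widest cluster of the arm, which scored 2.21. The third, from 19166656 to 19361126 (194.5 kb), held 1 cluster of replicate 1 and none of replicate 2. The fourth, from 15501070 to 15681645 (180.6 kb), and the fifth, from 10033604 to 10200044 (166.4 kb), held none of either. The first 4 lay between clusters found in both replicates, and the fifth between a cluster of replicate 2 alone and one found in neither.

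In the separate lists longer stretches were empty. In replicate 1 the longest ran from 15913809 to 16230362 (316.6 kb), where replicate 2 had 1 cluster and the replicate set 6, none above a score of 0.43. In replicate 2 the longest ran from 10033353 to 10332835 (299.5 kb), where replicate 1 had 1 cluster and the replicate set 5. The first 250 kb of the window from 16 to 17 Mb were themselves sparse, at 1.47% in replicate 1 and 2.49% in replicate 2. The stretch of replicate 1 ended inside them, shortly before the dense windows from 16.25 to 16.75 Mb. Within 58.9 kb of its end lay a cluster at 16267067 to 16272661 (5595 bp, with scores of 1.96 in the combined list, 1.77 in replicate 1 and 2.20 in replicate 2), followed by the ninth and the tenth widest of the arm. These 3 wide clusters occupied a span of 22.2 kb.

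Close groups of clusters were also found. Joined into runs with at most 5 kb between neighbours, the 1007 clusters of the replicate set formed 704 runs, of which 499 were single clusters (49.6% of clusters, against 45.8% on the other arms). Runs of 3 or more held 21.6% of the clusters, against 26.7% on the other arms. The 2 largest runs had 7 clusters each, from 1637583 to 1670218 (32.6 kb, 4 clusters in both replicates) and from 7975820 to 8013664 (37.8 kb, 6 clusters in both replicates). The most clusters with midpoints within 50 kb were 9, reached from 2855261 to 2901305 and from 7960450 to 8013664. The first of these groups held 7 clusters of replicate 1 and 4 of replicate 2, and the second held 8 of each. Scores of neighbouring clusters were almost unrelated over the arm, with a Spearman rho of 0.0709 over 1006 neighbouring pairs, and 0.175 over the 303 pairs at most 5 kb apart.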

How the data were processed

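Per the labels, 2 ChIP and 2 input libraries were made, from embryos fixed with formaldehyde, per the labels' protocols. The authors deposited 3 lists of enriched regions, 1 per ChIP replicate and 1 for the replicate set. Input lists and read counts were not analysed here. Bowtie 0.12.7 is named in the submitters' processing notes. How regions were called, at which threshold, and how replicates were combined is not given in the sources used here. Coordinates count from 1 on FlyBase release 5, per the file headers. Other values deposited by the authors are the starts and ends of regions.

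The scores that the authors deposited have no stated scale and were taken as log2 values. Once each list's commonest score had been subtracted, powers of 2 of the scores gave ratios of whole numbers (denominator at most 1000, relative tolerance 1e-10) for 99.8%, 99.8% and 98.4% of clusters in replicate 1, replicate 2 and the replicate set. With powers of e this held for 0.794%, 0.384% and 0.61%.

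Covered share, cluster density by midpoint, spacing and overlap (at least 1 shared base) were computed per list. The sides of 2R and 3R were taken in the reverse order, since their numbering starts at the centromere. Differences between arms or sides were tested over the 2 replicates by exact sign-flip permutation. Functions were tested on simulated data. Named items were the 10 highest-scoring and 10 widest clusters, the 5 longest empty stretches, the 5 most and 5 least covered windows of 1 Mb, the 5 most covered of 250 kb and the densest 50 kb. Other items were picked after their values were seen. The members and rules were chosen with earlier results of these data known. Intervals cover counting error only. Python 3.11.15, numpy 2.4.6, scipy 1.17.1 and matplotlib 3.10.9 were used.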

Additional observations from a re-analysis of the deposited data

Results flagged for a closer look

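The difference in covered share between the distal and the centromere-near side had opposite signs on 2L and on 2 other arms when each arm was divided at its midpoint. It was positive on 2L in both replicates and negative on 2R and on 3R in both replicates. The value on 2L exceeded that on 2R by 1.92 percentage points and that on 3R by 2.68 percentage points, as means over the 2 replicates. The difference between the arms was not tested. Comparing the outer parts of arms divided into 3, 2L and 2R had the same sign, with 2.02 and 1.51 percentage points in replicates 1 and 2 on 2L and 0.569 and 0.215 on 2R, while 3R stayed negative with -1.11 and -1.26.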

How the results depend on the processing

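Of 31 alternatives, 22 were counted as leaving the result in place and 9 as moving a value. For the arms and sides, in place means that the direction held, whatever the size. Medians in place lay within the SD of the 2 replicate medians (4.24 bp for width, 0.102 for score, 2041 bp for spacing). Moved medians lay beyond it. Shares in place lay inside the exact interval of the main share. The score SD includes the separate scaling of the lists. Shares and medians have no direction, so only the 9 alternatives for the arms and the 9 for the sides could turn one, and 0 did. Coverage of 2L stayed below that of the other arms under 9 alternatives and the distal side of 2L above the centromere-near side under 9, 1 of them added after the data were seen. That 1, without the first and last 1 Mb, lowered the difference between the sides from 1.51 to 0.849 percentage points. Without replicate 1 the difference was -1.04 percentage points for the arms and 1.37 for the sides, and without replicate 2 it was -1.21 and 1.65. These are the values of the remaining replicate and no separate check. The share of clusters found in both replicates was 93.8% for clusters that reached the list's median score and 61.5% among those at least as wide as the narrowest replicate cluster. Both settings remove weak or narrow clusters by construction. The median width of 2016 bp in the replicate set was 2044 bp after merging neighbours within 500 bp, 2094 bp in the replicate 1 list, 2100 bp in the replicate 2 list and 2294 bp for clusters in both replicates. The median score of 0.48 was 0.87 for clusters in both replicates and 0.55 among clusters at least as wide as the narrowest replicate cluster. The median spacing of 11477.5 bp was 16600.5 bp in the replicate 1 list and 19487 bp in the replicate 2 list, which hold fewer clusters. After merging neighbours within 500 bp it was 12340 bp. Median scores were not compared across lists, and motifs were not searched. No paired analysis was possible because the input libraries, which share replicate numbers with the ChIP libraries, have no list used here. Differences between arms and between sides were taken within each ChIP library. Having 2 ChIP libraries limits every comparison, and unknown read depth limits what an empty stretch shows.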

Other observations

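Among the 262 clusters of 2L found in neither replicate, 9 had a score of at least 1 in the replicate set, a limit chosen after the data were seen. They made up 3.44% of the 262, against 2.28% (21 of 920) on the other arms. Of these 9, 8 lay in the last of 5 equal segments of the arm, next to the centromere, which held 204 of the 1007 clusters and 59 of the 262. The second highest was at 20891589 to 20892591, only 1003 bp wide, with a score of 2.40. Clusters at 18581307 to 18582355 and 20107232 to 20108247 both scored 1.70, and that at 22338504 to 22339508 scored 1.68. The only one outside this segment, at 4536726 to 4537877, scored 1.10.

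The other 4, including the highest at 21424211 to 21426198 (2.46), lay together between 21407444 and 21475085, a span of 67.6 kb. Their scores were 1.06, 2.46, 1.10 and 1.14 in order of position. The span held no other cluster of the replicate set and no cluster of either replicate. Its limits are the outer borders of these 4 clusters, so the absence of others depends on that choice. The next cluster past its end overlapped replicate 1 and scored 1.09 in the replicate set. That was the highest score among the 120 clusters found in replicate 1 alone. The next cluster before its start was also found in neither replicate and scored below 1. Among all 262 clusters found in neither replicate, width and score had a Spearman rho of -0.628 across clusters, and of -0.618 among the 920 on the other arms. Among the 535 found in both it was 0.577. These clusters share a library and a caller.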
